A study of Mus musculus with 8 samples.

Results

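The transforming growth factor β (TGF-β) genes described here are 9 of the 54532 genes in the deposited table, chosen by name over all 8 libraries. They are the ligands *Tgfb1*, *Tgfb2* and *Tgfb3*, the latent TGF-β binding proteins *Ltbp1*, *Ltbp2* and *Ltbp3*, and the response genes *Smad7*, *Skil* and *Tgfbi*. The first 6 were read as supply, although the product of *Ltbp2* does not bind latent TGF-β, and the last 3 as response. All 9 had an FPKM (fragments per kilobase of gene, scaled to library size) above the minimum for testing. The cells were MICFs, cardiac fibroblasts from the infarcted area of adult male C57BL/6 mice at Day 6 after myocardial infarction (MI). All groups carried doxycycline (Dox)-inducible lentiviruses for MGT (*Mef2c*, *Gata4* and *Tbx5*), *Myocd*, *Sall4* and eGFP, which the labels call MGTMyoS overexpression, and all received Dox. For the *in vivo* samples the infected cells were injected into the left ventricle of 8-week-old male C57BL/6 mice right after coronary ligation, under the immunosuppressants tacrolimus, mycophenolate mofetil and methylprednisolone. For the *in vitro* samples they stayed in a reprogramming medium that held SB431542, an inhibitor of the TGF-β and activin type I receptor kinases, and baricitinib, a JAK inhibitor. eGFP+ cells were sorted at 1 week (Day 7) or 2 weeks (Day 14), with 2 libraries in each of the 4 groups. Nothing in the labels says which animals or wells gave a replicate, so p-values measure the spread between these samples, which may be technical. The heart environment, the receptor inhibitor, the JAK inhibitor and the immunosuppressants cannot be told apart in this design.

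TGF-β is made with a propeptide that keeps it inactive. The latent TGF-β binding proteins (LTBPs) other than LTBP2 hold this latent complex in the extracellular matrix until integrins, proteases or force release it. Active ligand signals through the TGFBR2 and TGFBR1 kinases to SMAD2 and SMAD3, which switch on matrix genes and, as feedback, the inhibitors SMAD7 and SKIL (SnoN). In the infarcted heart the pathway is known for driving fibroblasts towards matrix-producing myofibroblasts, and its inhibition is widely used to ease the conversion of fibroblasts to cardiomyocyte-like cells.

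Each library held 12304242 to 14546904 fragments assigned to genes. Every one of the 10 fibroblast markers had a mean of 1 FPKM or more in each group, and their summed level was 11000 to 14006 FPKM *in vivo* and 2410 to 3630 FPKM *in vitro*. All 11 macrophage markers also had a mean of 1 FPKM or more in each group, with a summed level of 1814 to 2876 FPKM *in vivo* and 4568 to 5672 FPKM *in vitro* and none of them at 0. Summed cardiomyocyte markers were at 16.3 to 48 FPKM *in vivo* and 166 to 1224 FPKM *in vitro*, and summed endothelial markers at 66 to 82.4 FPKM and 20.1 to 47.8 FPKM. Mesothelial markers were at 10 to 25.4 FPKM *in vivo* and 176 to 387 FPKM *in vitro*, mural markers at 99.3 to 117 and 47.8 to 126 FPKM, and platelet markers at 53.7 to 86.9 and 67.3 to 90.4 FPKM. Lymphocyte markers did not exceed a sum of 2.17 FPKM in any library, and 1 of the 8, *Cd3d*, was listed at 0 in all 4 *in vitro* libraries. The 5 reprogramming factors were all detected in every library. Values per gene do not tell transcripts of their viral copies from those of the cells' own genes. *Gata4* was at 35.9 to 38 FPKM *in vivo* and 52.6 to 73.2 FPKM *in vitro*, and *Tbx5* at 5.59 to 6.92 and 6.95 to 10.5 FPKM. *Myocd* was at 1.75 to 2.11 FPKM *in vivo* and 3.83 to 4.77 FPKM *in vitro*, and *Sall4* at 4.09 to 6.39 and 10.7 to 17.2 FPKM. The ranges of *Mef2c* overlapped, at 5.34 to 5.61 and 4.73 to 5.88 FPKM. In these bulk libraries fewer cells of a type and less RNA per cell cannot be told apart. The part of these cell types and of the factor levels in the results below was not tested.

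*Tgfb3*, the 3 LTBP genes and *Tgfbi* were higher *in vivo* than *in vitro* at both weeks, by 3.75-fold to 16.8-fold. *Tgfb2* was lower by 1.69-fold to 1.74-fold and *Tgfb1* was at 1.11-fold and 1.31-fold in the same direction, and neither *Tgfb2* nor *Tgfb1* was called. *Skil* and *Smad7*, the feedback inhibitors, lay between the higher and the lower genes. They were at 2.11-fold and 1.69-fold at 1 week and 1.41-fold and 1.19-fold at 2 weeks. Called genes are those whose p from limma's moderated linear model, adjusted after Benjamini and Hochberg over all 15708 tested genes, was under 0.01 and whose log2 fold change was beyond 1 in either direction. At 1 week 6 of the 9 genes were called and all were higher *in vivo*, where 12.9% of all tested genes were called and 7.79% were higher. At 2 weeks 5 of the 9 were called, again all higher, against 17.1% of all tested genes and 9.02% higher, and *Skil* was the gene no longer past the threshold. Over both weeks, which reuses the same libraries, the same 5 of 9 were called against 16.9% of all tested genes, 9.56% higher. The 9 genes were chosen with earlier results of these data known, so the counts above and the medians below are a description. Over the 9 genes the log2 fold changes had medians of 1.91 and 2.05 in the 2 weeks, beside -0.0058 and -0.0034 for all tested genes. Fibroblast markers moved in the same direction, with 6 of 10 called higher *in vivo* at 1 week and 7 of 10 at 2 weeks and none lower by limma, and their part in the levels of the 9 genes was not tested. In 8 of the 9 genes the 4 *in vivo* libraries did not overlap the 4 *in vitro* libraries, which held for 40.5% of all tested genes. In 7 the *in vivo* libraries were above, as in 20.5% of all tested genes, and in *Tgfb2* below, as in 20%. *Tgfb1* was the gene whose libraries overlapped.

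**Figure D1:**
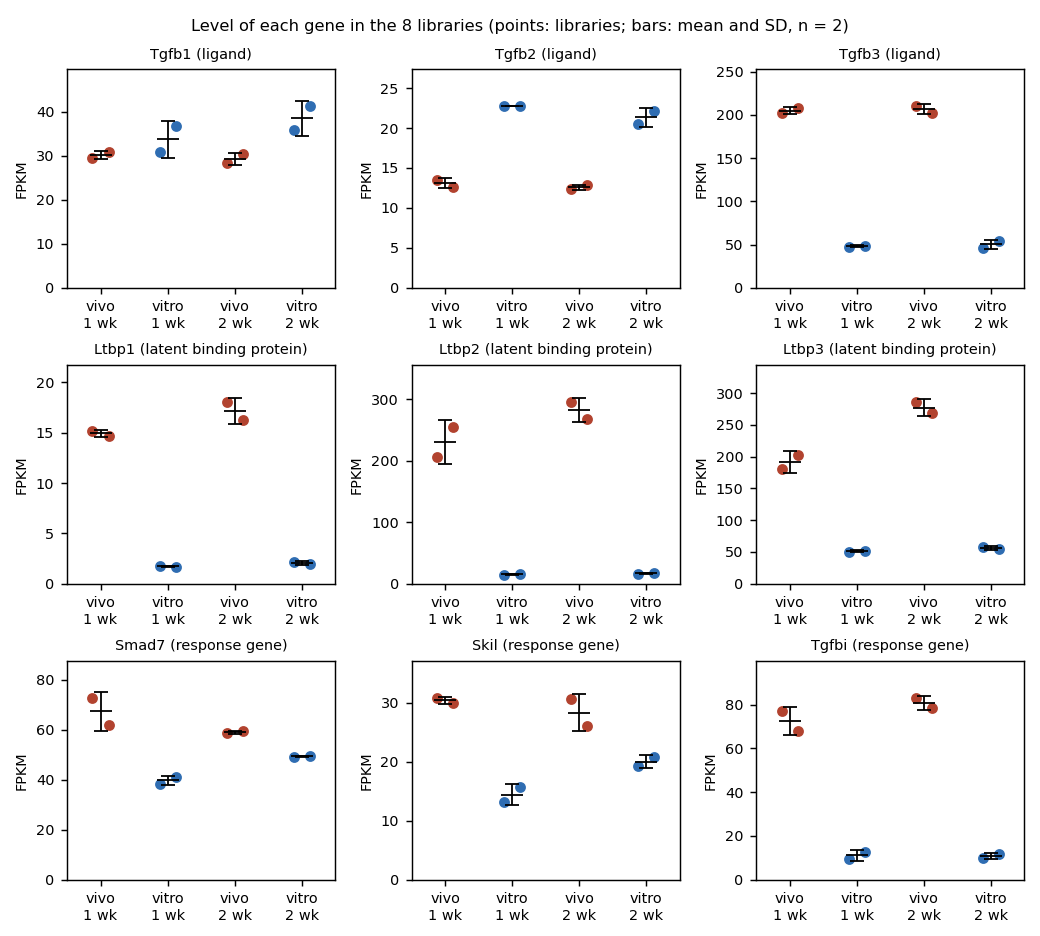
Level of each of the 9 genes in FPKM (vertical axes, each from 0), with a point for each library, in red for *in vivo* and blue for *in vitro* samples, and bars for the mean and SD of the 2 libraries in a group. *Tgfb3*, *Ltbp1*, *Ltbp2*, *Ltbp3* and *Tgfbi* sit far above their *in vitro* points at both weeks, *Tgfb2* sits below them, and in *Tgfb1* the 2 conditions overlap.

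The deposited FPKM contain a scaling between libraries, which raised *in vivo* values and lowered *in vitro* ones. Without it the middle of all log2 fold changes moved to -0.34 (1 week) and -0.33 (2 weeks), and the genes called higher and lower became 906 and 1562 at 1 week in place of 1224 and 796, and 1029 and 2097 at 2 weeks in place of 1417 and 1265. *Tgfb3*, *Ltbp1*, *Ltbp2*, *Ltbp3* and *Tgfbi* were called higher *in vivo* at both weeks with and without this scaling. *Tgfb2* then passed the fold threshold as lower, at log2 fold changes of -1.14 and -1.08, and *Skil* at 1 week did not pass, at 0.74.

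Windows from 250 bases before to 50 bases after a gene's start were taken from a RefSeq table (GRCm38.p6). The search covered 7 windows, for 6 of the 9 genes, and is not a count of all windows that the table holds for the 9. The windows of 3 genes that were higher *in vivo* are given, the LTBP genes *Ltbp2* and *Ltbp3* and the response gene *Tgfbi*. The window of the ligand gene that was lower, *Tgfb2*, is given beside them. The sequence next to the start can thus be compared between genes that moved in opposite directions. Capitals mark the SMAD motif CAGAC on either strand (GTCTG on the other) and, in *Ltbp3*, the AP-1 motif TGANTCA that overlaps it by bases 250 to 251 of the window. The windows are chr12:84876442-84876741 (minus strand) for *Ltbp2*, chr19:5740650-5740949 (plus strand) for *Ltbp3*, chr13:56609336-56609635 (plus strand) for *Tgfbi* and chr1:186705940-186706239 (minus strand) for *Tgfb2*, each written 5′ to 3′ on the gene's strand.
Ltbp2: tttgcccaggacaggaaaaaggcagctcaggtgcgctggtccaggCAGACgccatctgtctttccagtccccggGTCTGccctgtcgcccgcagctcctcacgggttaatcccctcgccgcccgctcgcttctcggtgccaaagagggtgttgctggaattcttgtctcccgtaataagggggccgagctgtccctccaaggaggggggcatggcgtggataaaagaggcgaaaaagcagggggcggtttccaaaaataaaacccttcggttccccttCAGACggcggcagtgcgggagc
Ltbp3: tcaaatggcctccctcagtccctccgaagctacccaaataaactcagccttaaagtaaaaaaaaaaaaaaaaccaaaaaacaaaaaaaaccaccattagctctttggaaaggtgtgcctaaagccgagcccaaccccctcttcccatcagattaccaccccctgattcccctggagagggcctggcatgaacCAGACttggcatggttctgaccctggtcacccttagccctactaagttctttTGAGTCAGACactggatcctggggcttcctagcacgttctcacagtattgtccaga
Tgfbi: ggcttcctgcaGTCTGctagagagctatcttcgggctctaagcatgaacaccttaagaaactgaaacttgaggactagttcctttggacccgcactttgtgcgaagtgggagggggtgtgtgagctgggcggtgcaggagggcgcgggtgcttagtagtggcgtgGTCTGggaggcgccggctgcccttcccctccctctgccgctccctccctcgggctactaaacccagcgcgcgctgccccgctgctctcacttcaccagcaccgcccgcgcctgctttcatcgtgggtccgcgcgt
Tgfb2: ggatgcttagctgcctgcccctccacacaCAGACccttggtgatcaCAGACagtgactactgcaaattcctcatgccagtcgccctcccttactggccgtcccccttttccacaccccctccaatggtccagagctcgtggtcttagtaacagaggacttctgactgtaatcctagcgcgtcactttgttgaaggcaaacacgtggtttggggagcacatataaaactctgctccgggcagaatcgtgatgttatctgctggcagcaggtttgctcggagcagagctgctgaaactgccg

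The SMAD motif was in 6 of the 7 windows of these genes, including that of *Tgfb2*, and in 49.6% of the 32817 windows in the table. *Ltbp2* held it 3 times, and *Ltbp3*, *Tgfbi* and *Tgfb2* held it 2 times each, while the window of *Tgfb1* held none. The AP-1 motif TGANTCA, which can be read on both strands, was in 1 of the 7 windows, that of *Ltbp3*, against 7.81% of all windows. The palindrome GTCTAGAC, the doubled form of the SMAD site, was in 0 of the 7 and in 0.213% of all windows. No window of *Tgfb3*, *Skil* or *Smad7* was searched for these motifs. The counts, including the 0 for the palindrome, thus say nothing about those genes. So short a motif falls in many windows, and the higher and the lower genes among those printed both held it.

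Of the ligands, *Tgfb3* (ENSMUSG00000021253, chr12:86056745-86079041, minus strand, GRCm38) encodes the isoform best known for its part in closing the palate. Its level at 1 week was 202 and 208 FPKM in the *in vivo* samples and 47.2 and 48.7 FPKM in the *in vitro* samples. At 2 weeks it was 211 and 203 FPKM *in vivo* and 46.2 and 54.1 FPKM *in vitro*. All 4 *in vivo* libraries lay close together and far above the highest *in vitro* library. *In vivo* over *in vitro*, the log2 fold change was 2.09 ± 0.08 (SE) at 1 week and 2.05 ± 0.08 at 2 weeks, with limma adjusted p of 4.8e-06 and 4.3e-06. The difference between the weeks was -0.05, with a 95% confidence interval of -0.32 to 0.23. The annotation of *Tgfb3* overlaps the opposite-strand gene *Ttll5*, which did not exceed 3.22 FPKM, and whether the counting used strand is not given in the sources used here.

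*Tgfb2* (ENSMUSG00000039239, chr1:186622792-186705989, minus strand) encodes an isoform known for its part in heart valve and septum formation. At 1 week it was at 13.5 and 12.6 FPKM *in vivo* and at 22.8 and 22.8 FPKM *in vitro*. A week later it was at 12.4 and 12.8 FPKM *in vivo* and at 20.5 and 22.2 FPKM *in vitro*. Every *in vivo* library was below every *in vitro* library, the opposite order to *Tgfb3*. Between conditions the log2 fold change was -0.80 ± 0.07 and -0.76 ± 0.07, each with a limma adjusted p of 0.00015, so the difference exceeded the replicate spread but not the fold threshold. Over 4 libraries against 4 the exact two-sided permutation p was 0.0286, the smallest this design allows, for *Tgfb2* and for the 7 genes whose *in vivo* libraries were all higher.

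*Tgfb1* (ENSMUSG00000002603, chr7:25687002-25705077, plus strand) encodes the isoform made by many cell types, macrophages and platelets among them. Its level *in vivo* was 29.5 and 30.9 FPKM at 1 week and 28.3 and 30.3 FPKM at 2 weeks. *In vitro* it was 30.8 and 36.7 FPKM at 1 week and 35.7 and 41.4 FPKM at 2 weeks. The lowest *in vitro* library fell inside the *in vivo* range. The log2 fold change was -0.16 (95% confidence interval -0.41 to 0.10, limma adjusted p = 0.28) at 1 week and -0.39 (-0.64 to -0.14, limma adjusted p = 0.02) at 2 weeks, and neither was called. The exact two-sided permutation p over 4 libraries against 4 was 0.0571. The summed macrophage markers were lower in each *in vivo* library than in each *in vitro* library, although by limma just 1 of the 11 was called lower at 1 week, with 1 called higher. A week later 5 were called lower and 1 higher. Their part in the *Tgfb1* level was not tested.

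As a share of the summed ligand FPKM, which is a per-length scale, *Tgfb3* made up 82.5% to 83.8% in the *in vivo* libraries and 45% to 46.9% in the *in vitro* libraries. *Tgfb1* made up 11.3% to 12.3% *in vivo* and 30.5% to 35.2% *in vitro*, and *Tgfb2* 4.92% to 5.52% and 18.8% to 22.6%. The summed ligand level was 245 to 251 FPKM *in vivo* and 101 to 118 FPKM *in vitro*. Each range came from 4 libraries, and for none of the 3 ligands did the shares of the conditions overlap. The ligand transcripts of the transplanted cells were mostly *Tgfb3*, and those of the cultured cells were a smaller pool spread more evenly over the 3 genes.

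**Figure D2:**
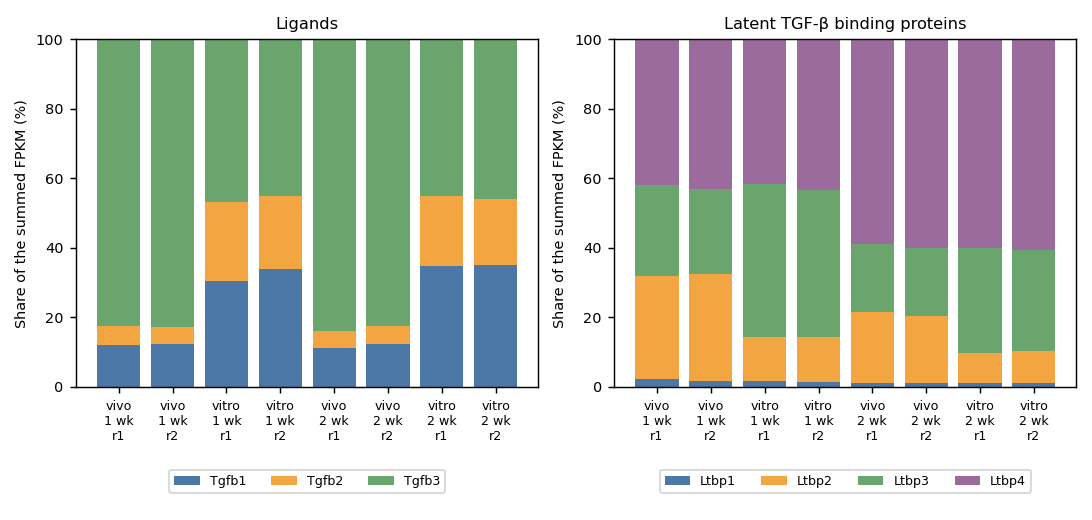
Share (%) of the summed FPKM of the 3 ligand genes (left) and of the 4 LTBP genes (right) in each of the 8 libraries, with a stacked bar from 0 to 100% for each library. *Tgfb3* takes 82.5% to 83.8% of the ligand bar *in vivo* and 45% to 46.9% *in vitro*, while the *Ltbp4* share is 41.5% to 43.3% in the 1-week bars and 58.9% to 60.5% in the 2-week bars of both conditions.

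Among the latent binding proteins, *Ltbp2* (ENSMUSG00000002020, chr12:84783212-84876532, minus strand) had the widest difference of the 9 genes. Its product is an elastic-fibre microfibril protein which, unlike the other LTBPs, does not bind latent TGF-β. At 1 week it was at 206 and 256 FPKM *in vivo* and at 14.5 and 15.9 FPKM *in vitro*. At 2 weeks it was at 296 and 269 FPKM *in vivo* and at 16.4 and 17.0 FPKM *in vitro*. The conditions were far apart at both weeks, while the 2 libraries of 1 week *in vivo* differed more from each other than those of any other group. The log2 fold change was 3.90 ± 0.11 (SE) at 1 week, or 15-fold, and 4.07 ± 0.11 at 2 weeks, or 16.8-fold, with limma adjusted p of 1.4e-06 and 9.6e-07.

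*Ltbp1* (ENSMUSG00000001870, chr17:75005568-75392512, plus strand), a carrier of the latent ligand that tethers it to fibronectin and fibrillin, was the lowest LTBP gene in both conditions. Its level was 15.2 and 14.7 FPKM *in vivo* against 1.79 and 1.67 FPKM *in vitro* at 1 week. The 2-week values were 18.1 and 16.2 FPKM against 2.17 and 1.94 FPKM. The *in vitro* levels rested on 262 to 314 fragments per library and did not overlap the *in vivo* levels. This gave log2 fold changes of 3.04 ± 0.10 and 3.003 ± 0.10, or 8.22-fold and 8.02-fold, with limma adjusted p of 2.1e-06 and 2e-06.

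*Ltbp3* (ENSMUSG00000024940, chr19:5740904-5758532, plus strand), which also carries latent TGF-β and is known for its roles in bone and tooth, was the highest of the 9 genes *in vitro*. At 1 week it was at 179.9 and 203 FPKM *in vivo* and at 49.9 and 52.1 FPKM *in vitro*. At 2 weeks it was at 287 and 268 FPKM *in vivo* and at 57.9 and 54.2 FPKM *in vitro*. Both *in vivo* libraries at 2 weeks were above both at 1 week, whereas the *in vitro* levels lay close together. The log2 fold change between conditions was 1.91 ± 0.08 and 2.30 ± 0.08, with limma adjusted p of 6.3e-06 and 2.4e-06. Reads from the opposite strand at *Ltbp3* cannot be told apart from its own if the counting did not use strand.

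The fourth family gene, *Ltbp4*, was not among the 9 but belongs to the list of latent TGF-β storage and activation genes. Its group means were 325 FPKM *in vivo* and 50.1 FPKM *in vitro* at 1 week, and 847 and 114 FPKM at 2 weeks. It was higher *in vivo* by log2 fold changes of 2.69 ± 0.11 and 2.90 ± 0.11, and it rose from 1 to 2 weeks in both conditions, by 1.39 *in vivo* and 1.18 *in vitro*, with limma adjusted p of 0.001 and 0.0009. With it the summed LTBP level was 691 to 833 FPKM at 1 week and 1388 to 1461 FPKM at 2 weeks *in vivo*, and 113 to 123 and 185 to 192 FPKM *in vitro*. *Ltbp4* made up 42% to 43.1% of that sum *in vivo* and 41.5% to 43.3% *in vitro* at 1 week, and 58.9% to 60.2% and 60.1% to 60.5% at 2 weeks. The remaining share differed between conditions, with *Ltbp2* at 29.8% to 30.7% *in vivo* and 12.8% to 13% *in vitro* at 1 week, and *Ltbp3* at 24.4% to 26% and 42.4% to 44%. The same order held at 2 weeks, with *Ltbp2* at 19.4% to 20.3% and 8.56% to 9.18%, and *Ltbp3* at 19.3% to 19.6% and 29.3% to 30.2%.

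**Figure D3:**
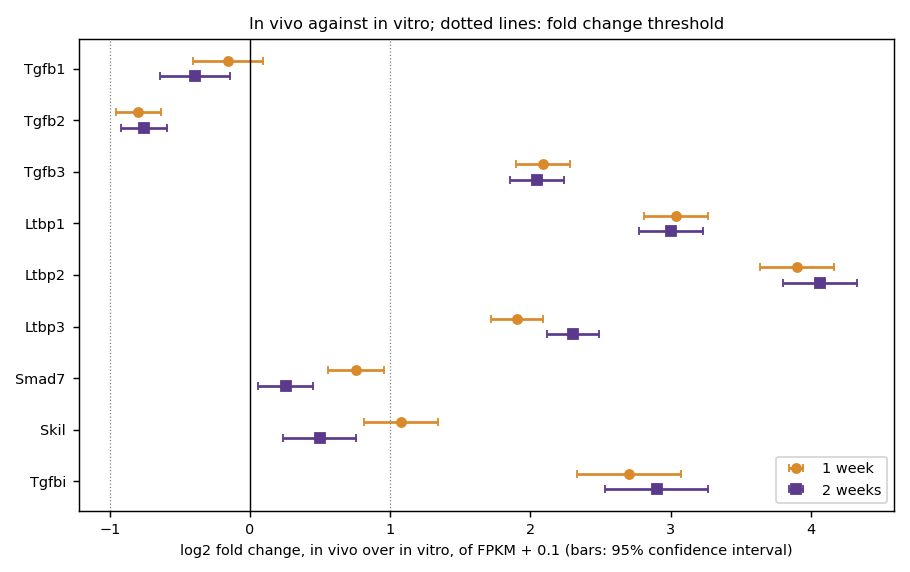
log2 fold change of FPKM + 0.1, *in vivo* over *in vitro* (horizontal axis), for each of the 9 genes at 1 week (orange circles) and 2 weeks (purple squares), with bars for the 95% confidence interval and dotted lines at the fold threshold. *Ltbp2* is farthest right, *Tgfb2* is left of 0 inside the dotted line, and the *Smad7* and *Skil* points move left from 1 week to 2 weeks.

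Among the response genes, *Tgfbi* (ENSMUSG00000035493, chr13:56609523-56639562, plus strand) encodes a secreted matrix protein first known from its induction by TGF-β. At 1 week it was at 77.0 and 68.1 FPKM *in vivo* and at 9.44 and 12.9 FPKM *in vitro*. A week later it was at 83.2 and 78.5 FPKM *in vivo* and at 9.82 and 11.7 FPKM *in vitro*. The conditions did not overlap, and of the 4 groups the replicates at 1 week *in vitro* were the farthest apart relative to their mean. Its log2 fold change was 2.70 ± 0.16 (SE) and 2.90 ± 0.16, with limma adjusted p of 2.6e-05 and 1.5e-05.

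*Skil* (ENSMUSG00000027660, chr3:31095058-31122577, plus strand) encodes SnoN, a co-repressor that binds SMADs and is itself a SMAD target. At 1 week it was at 30.9 and 30.0 FPKM *in vivo* and at 13.1 and 15.7 FPKM *in vitro*. At 2 weeks it was at 30.6 and 26.1 FPKM *in vivo* and at 19.2 and 20.8 FPKM *in vitro*. The *in vivo* libraries were above the *in vitro* libraries at both weeks, with a narrower gap at 2 weeks. The log2 fold change was 1.08 ± 0.11 with a limma adjusted p of 0.00035 at 1 week and 0.50 ± 0.11 with a limma adjusted p of 0.009 at 2 weeks. The call at 1 week was lost without *in vitro* replicate 1, at a log2 fold change of 0.95.

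*Smad7* (ENSMUSG00000025880, chr18:75367529-75395935, plus strand) encodes the inhibitory SMAD that blocks the type I receptor. At 1 week it was at 72.9 and 62.0 FPKM *in vivo* and at 38.5 and 41.1 FPKM *in vitro*. A week later it was at 58.6 and 59.5 FPKM *in vivo* and at 49.2 and 49.6 FPKM *in vitro*. No *in vitro* library reached an *in vivo* one, yet the gap at 2 weeks was narrower than at 1 week. As a log2 fold change the difference was 0.76 ± 0.08 (limma adjusted p = 0.00048) and 0.26 ± 0.08 (limma adjusted p = 0.039), and neither was called. Without the scaling between libraries the value at 2 weeks turned to -0.076, against a median of -0.33 for all genes.

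Ordered by mean level per length over both weeks, the 9 genes ran *Ltbp2*, *Ltbp3*, *Tgfb3*, *Tgfbi*, *Smad7*, *Tgfb1*, *Skil*, *Ltbp1*, *Tgfb2* in the *in vivo* samples. The means there went from 257 ± 38 FPKM (SD, n = 4) for *Ltbp2* to 12.8 ± 0.491 FPKM for *Tgfb2*. The ranges of *Ltbp2* and *Ltbp3*, of *Ltbp3* and *Tgfb3*, of *Tgfbi* and *Smad7* and of *Tgfb1* and *Skil* overlapped. *In vitro* the order was *Ltbp3*, *Tgfb3*, *Smad7*, *Tgfb1*, *Tgfb2*, *Skil*, *Ltbp2*, *Tgfbi*, *Ltbp1*, from 53.5 ± 3.41 FPKM for *Ltbp3* to 1.89 ± 0.213 FPKM for *Ltbp1*. There *Ltbp3*, *Tgfb3*, *Smad7* and *Tgfb1* overlapped from neighbour to neighbour, as did *Tgfb2* with *Skil* and *Skil* with *Ltbp2*. Some neighbours changed places between the weeks. At 1 week the mean of *Tgfb3* (205 FPKM) was above that of *Ltbp3* (192 FPKM) *in vivo*, and that of *Ltbp2* (15.2 FPKM) was above that of *Skil* (14.4 FPKM) *in vitro*. *Tgfb1* and *Skil*, at 30.2 and 30.5 FPKM, were also in the other order at 1 week *in vivo*.

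From 1 to 2 weeks none of the 9 genes was called in either condition by limma, where 2.18% of all tested genes were called *in vivo* and 3.81% *in vitro*. At an unadjusted p under 0.05 there were 2 of the 9 *in vivo* (*Ltbp2* and *Ltbp3*), against 31.7% of all tested genes, and 3 of the 9 *in vitro* (*Ltbp1*, *Smad7* and *Skil*), against 38.2%, and limma's voom on fragments called 0 in both. *Ltbp3* had the farthest value *in vivo*, at a log2 fold change of 0.54 ± 0.08 with a limma adjusted p of 0.0074, which is under the fold threshold. *In vitro* the feedback genes had the farthest values, 0.47 ± 0.11 for *Skil* (limma adjusted p = 0.023) and 0.31 ± 0.08 for *Smad7* (limma adjusted p = 0.034). The other values in the 2 conditions ran from -0.19 to 0.30. The difference between the weeks in the *in vivo* against *in vitro* contrast was called for 0 of the 9 genes by limma and by voom, against 1.73% of all tested genes, with 3 of the 9 at an unadjusted p under 0.05 against 26.9% of all tested genes. These were *Skil* at -0.58 (limma adjusted p = 0.064), *Smad7* at -0.50 (limma adjusted p = 0.044) and *Ltbp3* at 0.40 (limma adjusted p = 0.069).

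**Figure D4:**
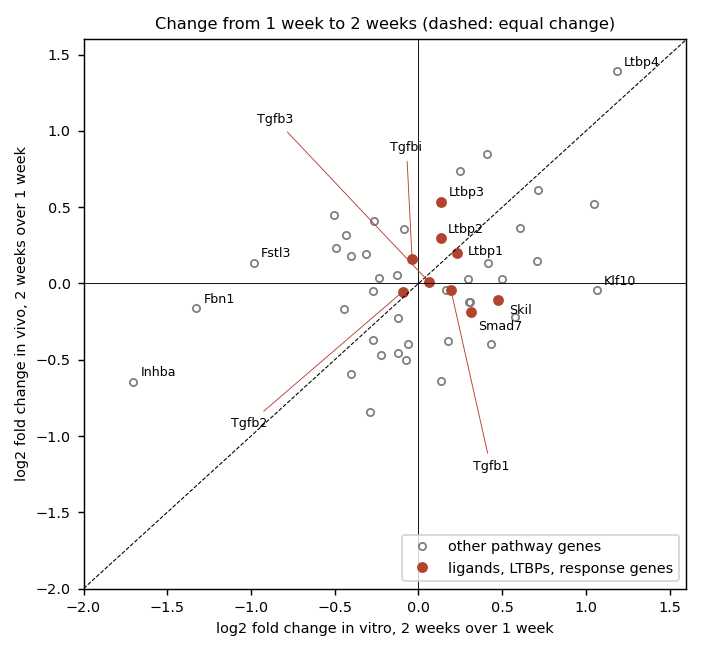
log2 fold change from 1 week to 2 weeks *in vitro* (horizontal axis) and *in vivo* (vertical axis) for the 9 genes (filled) and 40 other pathway genes (open), with a dashed line at equal change. *Ltbp3* lies above the line at 0.54 *in vivo*, *Skil* and *Smad7* lie to the right of it, and *Ltbp4* lies far from the 9 genes at 1.39 and 1.18.

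The other genes of the pathway were taken from 4 lists of 44 genes in all, of which 40 were tested. These lists, too, were chosen with earlier results of these data known. *Acvr1c*, *Itgb6*, *Mstn* and *Nodal* did not exceed 0.254 FPKM in any library and were not tested. At 1 week 14 were called higher and 1 lower *in vivo*, and at 2 weeks 17 and 1, with a median log2 fold change of 0.74 and 0.67. The shares of all tested genes called were 12.9% (7.79% higher) and 17.1% (9.02% higher), to be set beside each count of these lists. Of the 9 tested receptors and SMADs, 1 was called higher and none lower at each week, and the median was 0.31 and 0.36. That gene was *Acvrl1*, the type I receptor ALK1 known from endothelium, at log2 fold changes of 1.40 ± 0.07 and 2.15 ± 0.07. The summed endothelial markers were also higher *in vivo*, with 6 of 7 called higher at 1 week and 3 of 7 at 2 weeks, and their part in it was not tested. *Tgfbr1*, the kinase that SB431542 blocks, had values of 0.31 ± 0.07 and 0.21 ± 0.07, which turned to -0.03 and -0.13 without the scaling between libraries. *Tgfbr2*, the ligand-binding receptor, had values of 0.74 ± 0.08 and 0.46 ± 0.08, under the fold threshold.

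Of the 12 tested genes of latent TGF-β storage and activation, 6 were called higher and 1 lower at each week, with medians of 1.01 and 1.05. The fibrillin genes, whose products form the microfibrils that LTBPs attach to, were among those higher. *Fbn1* had group means of 323 and 82.8 FPKM at 1 week and 290 and 32.9 FPKM at 2 weeks, with log2 fold changes of 1.96 ± 0.12 and 3.12 ± 0.12. *Fbn2* had means of 7.24 and 0.733 FPKM and of 4.84 and 0.532 FPKM, with values of 3.14 ± 0.21 and 2.94 ± 0.21. *Emilin1*, an elastic-fibre glycoprotein known to restrain processing of the TGF-β precursor, was higher by 1.98 ± 0.06 and 1.54 ± 0.06. The gene called lower was *Nrros*, a myeloid protein that anchors latent TGF-β1 on macrophages and microglia, at -1.26 ± 0.12 and -2.03 ± 0.12. Its means were 9.87 and 23.6 FPKM at 1 week and 6.27 and 25.9 FPKM at 2 weeks, in the same order as the summed macrophage markers, whose part was not tested. *Lrrc32*, at -0.24 and -0.34, and *Itgav*, at -0.10 and -0.44, were below 0 without being called. They are named here because their values were seen. The other tested genes of this list had values above 0 at both weeks.

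Of the 15 other response genes, 7 were called higher at 1 week and 8 at 2 weeks, with none called lower by limma and medians of 1.00 and 1.07. *Ctgf* (*Ccn2*), a matricellular protein and a standard readout of TGF-β signalling, was at group means of 1007 and 112 FPKM at 1 week and 1113 and 183 FPKM at 2 weeks, with log2 fold changes of 3.16 ± 0.07 and 2.60 ± 0.07. The feedback inhibitors *Pmepa1* and *Ldlrad4* were higher by 2.47 ± 0.06 and 2.15 ± 0.12 at 1 week and by 2.23 ± 0.06 and 2.88 ± 0.12 at 2 weeks. These were larger values than those of the feedback genes *Skil* and *Smad7*, although the differences between genes were not tested. *Nox4*, an oxidase induced in myofibroblasts, was higher by 2.16 ± 0.09 and 2.65 ± 0.09. *Tgif1*, a SMAD co-repressor, was called at 1 week at 1.53 ± 0.12 and not at 2 weeks, at 0.73 ± 0.12. *Fstl3*, an activin-binding protein, was higher by 1.13 ± 0.10 and 2.25 ± 0.10, and at 1 week it was at 0.80 and not called without the scaling between libraries.

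Of the 4 tested activin-type ligands and binders, 2 were called higher at 2 weeks, *Inhba* and *Fst*, and at 1 week the 4 values ran from 0.0017 to 0.79 with none called by limma. *Fst*, which encodes the activin binder follistatin, was at 0.36 and 1.03 and is named here because its value was seen. *Inhba*, which encodes the activin A subunit and acts through a receptor kinase that SB431542 also blocks, was at means of 16.9 and 9.7 FPKM at 1 week and 10.7 and 2.9 FPKM at 2 weeks. Its log2 fold change was 0.79 ± 0.10 at 1 week, under the fold threshold, and 1.85 ± 0.10 at 2 weeks. Both conditions were lower at 2 weeks, by values of -0.64 *in vivo* and -1.70 *in vitro*, and the latter was called.

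**Figure D5:**
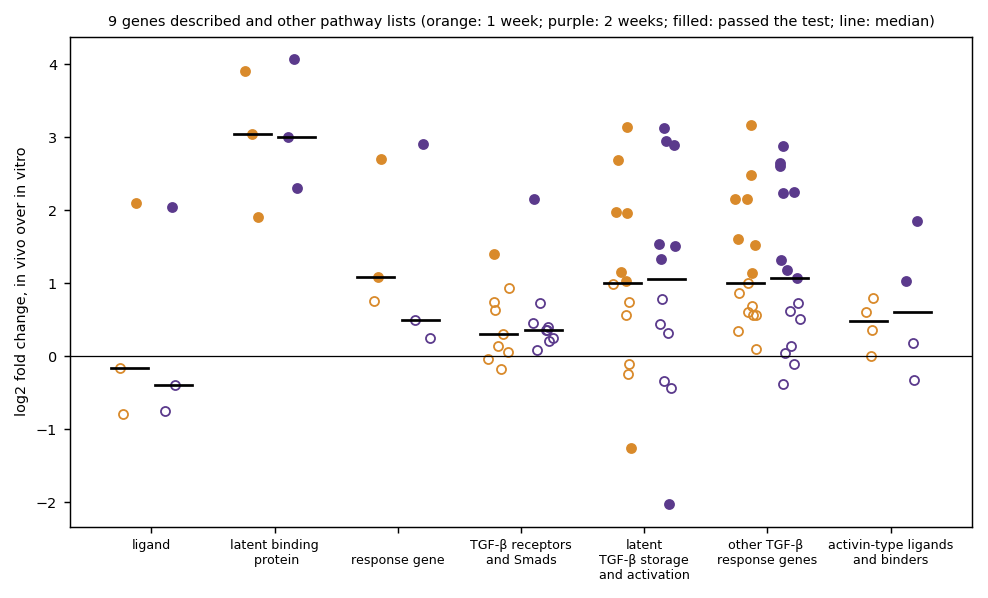
log2 fold change, *in vivo* over *in vitro* (vertical axis), of the ligands, LTBPs and response genes described and of the 4 other pathway lists (horizontal axis), at 1 week (orange) and 2 weeks (purple), filled where called and with a line at each median. The LTBP genes have the highest medians, 3.04 and 3.003, the ligands the lowest, and *Nrros* is the filled point below 0.

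Over the 8 libraries, the genes most alike in log2 level to each of the 9 were sought among 7109 protein-coding genes with a mean of at least 5 FPKM, as a description of libraries that share week, condition and scaling. For *Tgfb3* they were *Pofut2* and *Clmp* (Pearson's r = 0.9992 and 0.9989, n = 8), and *Clmp* and *Acvr1* were nearest to *Ltbp2* (0.9989 and 0.9988). *Ltbp1* was nearest to *Thbs3* and *C1qtnf3* (both 0.9993), *Ltbp3* to *Dnm1* and *Syt11* (0.9990 and 0.9989) and *Tgfbi* to *Tmem184b* and *Slc25a38* (0.9967 and 0.9964). *Tgfb2*, lower *in vivo*, was nearest to *Mcoln1* and *Rabgap1* (0.9983 and 0.9963). *Skil* was nearest to *Slfn5* and to *Tgif1*, the SMAD co-repressor named above (0.9911 and 0.9903), and *Smad7* to *Gramd1a* and *Tcim* (0.9840 and 0.9826). *Tgfb1*, with the least separation between conditions, had the weakest likeness, to *Rgl1* and *Man1c1* (0.9591 and 0.9523).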

How the data were processed

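RNA-seq libraries from eGFP+ sorted cells (2 per group, 4 groups) were analysed from the table of FPKM values deposited by the authors, whose provider did the mapping. The submitters' processing notes name CASAVA, HISAT2 2.0.5 and mm10, and the counting tool is not given in the sources used here. FPKM times gene length gave whole fragments, within 0.01, for 100% of values, so depth was recovered as 12304242 to 14546904 fragments on genes per library. Of the gene coordinates, 98.3% of 54409 shared identifiers had those of GENCODE vM21 on GRCm38.

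Values were compared as log2(FPKM + 0.1), which understates changes of low genes, with limma 3.58.1 (Benjamini-Hochberg adjustment) in R 4.3.3 over all 8 libraries, for the 15708 genes that reached an FPKM of 0.5 in 2 or more libraries. The thresholds of 0.01 and 2-fold are those in the study's methods, which name a P and higher genes, whereas here they were set on an adjusted p and in both directions. The authors' DESeq2 needs counts and was not repeated. The fit was tested on simulated data. Single genes were also compared by exact permutation. Alternatives changed the pseudocount, filter, scaling, gene set, replicate block, variance model, call rule and libraries, or used limma's voom on fragments. Same-numbered replicates correlated at -0.048 to -0.011 between groups, and the numbers were not treated as pairs.

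The 9 genes, the pathway and marker lists and the named genes were chosen with earlier results of these data known. The genes named are the 9, a fixed 6 (*Tgfbr1*, *Tgfbr2*, *Ctgf*, *Pmepa1*, *Ltbp4* and 1 that is not reported here), up to 4 further per pathway list with the largest change among those called over both weeks, and for each of the 9 the 2 most correlated genes. Python 3.11.15 with pandas 2.3.3, numpy 2.4.6 and matplotlib 3.10.9 was used for tables and figures.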

Additional observations from a re-analysis of the deposited data

Results flagged for a closer look

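For 3 genes of the pathway lists the log2 fold change, *in vivo* over *in vitro*, at 2 weeks was tested against that at 1 week and passed both thresholds (limma interaction contrast, adjusted over all tested genes, of which 1.73% passed). *Klf10*, an early TGF-β-induced transcription factor named here because its value was seen, went from a log2 fold change of 1.00 at 1 week to -0.11 at 2 weeks, a difference of -1.11 ± 0.14 (SE, limma adjusted p = 0.0064). Its group means were 38.1 and 37 FPKM *in vivo* and 19 and 39.9 FPKM *in vitro*. *Fstl3*, the activin-binding protein, went from 1.13 to 2.25, a difference of 1.12 ± 0.14 (limma adjusted p = 0.0063), with means of 15.5 and 17 FPKM *in vivo* and 7 and 3.49 FPKM *in vitro*. *Inhba*, the activin A subunit, went from 0.79 to 1.85, a difference of 1.06 ± 0.14 (limma adjusted p = 0.0071), with means of 16.9 and 10.7 FPKM *in vivo* and 9.7 and 2.9 FPKM *in vitro*. In all 3 the *in vitro* means moved farther between the weeks than the *in vivo* means. None of the 3 kept an adjusted p under 0.01 and an absolute value over 1 when any of the 8 libraries was left out, where the differences ran from -1.22 to -0.99 for *Klf10*, 1.00 to 1.24 for *Fstl3* and 0.97 to 1.15 for *Inhba*.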

How the results depend on the processing

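The counts of called genes among the 9 stayed at 6 (1 week), 5 (2 weeks), 5 (both weeks) and 0 (time and difference between weeks) under the other pseudocounts, filters, quantile normalization, variance models, protein-coding genes only, voom, the 4 libraries of a comparison alone and the replicate block. Without the scaling *Tgfb2* was called too, which gave 6 at 2 weeks and over both weeks, and at 1 week it took the place of *Skil*. An adjusted p under 0.05 with no minimum fold change gave 8 at 1 week, 9 at 2 weeks, 9 over both weeks, 1 for the difference between weeks, 1 for time *in vivo* and 2 for time *in vitro*, against 42%, 49.8%, 58%, 9.92%, 15.8% and 25.1% of all tested genes. Leaving out 1 library gave 5 to 6 at 1 week, 5 to 5 at 2 weeks and over both weeks, and 0 to 0 otherwise. For single values of the 9 genes, 722 kept their direction and side of the threshold, 17 newly passed it, 2 no longer passed (*Skil* at 1 week, 0.74 without the scaling and 0.95 without *in vitro* replicate 1) and 3 changed sign. These were *Smad7* at 2 weeks without the scaling (-0.076), *Ltbp3* over time *in vitro* under quantile normalization (-0.032) and *Skil* over time *in vivo* with libraries left out (-0.22 to 0.0056). Without the scaling, *Tgfbr1* was at -0.033 and -0.13, and with libraries left out *Klf10* at 2 weeks ran from -0.23 to 0.0048. The causes were not tested. The replicate block gave adjusted p of 0.017, 0.017 and 0.015 for the week differences of *Klf10*, *Fstl3* and *Inhba*, which were then not called, and 11 higher and 16 lower genes in all rather than 90 and 181. It changed no call among the 9. These 3 were also lost without the filter or the variance trend, and *Fstl3* and *Inhba* with a pseudocount of 1 (0.96 and 0.85). The precision is limited by 2 libraries per group of unstated origin and, for *in vitro* *Ltbp1*, by 262 to 314 fragments. Comparisons over both weeks could not be made from 4 libraries alone.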
